A study of Arabidopsis thaliana with 11 samples.

Results

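The genes for the core histones and their variants were examined in F1 seeds of Arabidopsis thaliana with and without maternal linker histone H1. The set is a fixed list of 35 loci, of the 27588 genes counted. It holds 23 replication-linked genes, which are 5 for H3.1, 4 for H2A, 6 for H2B and 8 for H4, and 12 variant genes, which are 3 for H3.3, 1 for CENH3, 3 for H2A.Z, 3 for H2A.W and 2 for H2A.X. The list is one of gene identity, with no threshold on expression, and was drawn up with earlier results of these data known.

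The h1/H1 seeds came from a Col-0 mother that carried T-DNA insertions in 3 linker histone genes, as the alleles h1.3-1, h1.2-2 and h1.1-1. The father was wild-type Ler, so the endosperm and embryo of these seeds keep the paternal H1 genes. Their seed coat is tissue of the mutant mother, so seed coat RNA in a library differs in genotype between the groups too. The H1/H1 seeds came from Col-0 mothers and Ler fathers. Both were collected 8 days after the cross, and endosperm and embryo were dissected by hand, a method the authors describe as open to seed coat contamination. Of the 11 samples, 6 libraries carry a name that ties them to a group: 3 from h1/H1 endosperm, lettered C, D and E, 2 from H1/H1 endosperm, lettered A and B, and F, an H1/H1 library whose header names embryo. Values below are given in that order and as CPM, counts as a rate per library total after TMM scaling, which removes differences in sequencing depth.

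Nucleosomes wrap DNA around a core of H2A, H2B, H3 and H4, and linker histone H1 binds the DNA that enters and leaves this core. In plants the replication-linked genes are transcribed mainly in S phase, when new DNA is packed, whereas H3.3, H2A.Z and other variants are also deposited outside replication. H3.3 marks transcribed genes, H2A.Z lies at gene starts and over responsive genes, H2A.W marks heterochromatin, H2A.X is phosphorylated at DNA breaks, and CENH3 replaces H3 at centromeres. The endosperm of Arabidopsis first divides its nuclei in a syncytium and later forms cell walls, after which division slows.

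The promoters of several members hold short elements known from plant histone genes. Each element was searched on both strands of the 250 bases before the annotated transcript start, in the 35 members and in 27443 protein-coding genes. The octamer CGCGGATC was found in 7 of the 23 replication-linked promoters (30.4%) and in 2 of the 12 variant promoters (16.7%), against 0.135% of all promoters. The hexamer ACGTCA was found in 7 of the 23 (30.4%), 5 of them among the 6 H2B genes, and in 1 of the 12, against 7.69% of all promoters. The nonamer CATCCAACG and the E2F type element TTTCCCGC had no match in the 35 windows, and TTTGGCGC matched in 2 H4 genes, AT3G46320 and AT3G45930.

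The 9 windows below show where these elements sit in 6 of the replication-linked genes, HTR2 being a minor copy with a pair of octamers, and in the 3 variant genes that share them. They are the 200 bases before each transcript start in the TAIR10.1 reference, read 5′ to 3′ along the gene, with the octamer, the hexamer and their reverse complements in capitals.
HTR1 (chr5:26120582-26120781, minus strand): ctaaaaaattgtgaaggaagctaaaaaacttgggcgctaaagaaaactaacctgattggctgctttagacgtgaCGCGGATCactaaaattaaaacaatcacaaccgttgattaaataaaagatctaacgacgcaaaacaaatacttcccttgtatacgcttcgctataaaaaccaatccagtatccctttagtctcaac
HTR2 (chr1:2972335-2972534, minus strand): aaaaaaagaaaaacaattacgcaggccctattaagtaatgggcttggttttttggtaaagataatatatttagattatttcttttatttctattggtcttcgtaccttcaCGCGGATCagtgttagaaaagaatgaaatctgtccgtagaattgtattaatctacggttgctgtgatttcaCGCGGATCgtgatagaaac
HTA10 (chr1:18926611-18926810, plus strand): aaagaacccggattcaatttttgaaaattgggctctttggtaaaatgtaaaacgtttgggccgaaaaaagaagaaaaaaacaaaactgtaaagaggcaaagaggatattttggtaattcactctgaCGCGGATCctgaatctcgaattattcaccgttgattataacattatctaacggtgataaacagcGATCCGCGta
H4 AT5G59690 (chr5:24051274-24051473, plus strand): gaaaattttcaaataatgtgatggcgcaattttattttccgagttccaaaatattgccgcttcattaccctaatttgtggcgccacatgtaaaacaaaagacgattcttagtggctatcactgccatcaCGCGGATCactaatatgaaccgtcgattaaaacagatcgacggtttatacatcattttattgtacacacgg
HTB9 (chr3:16898014-16898213, minus strand): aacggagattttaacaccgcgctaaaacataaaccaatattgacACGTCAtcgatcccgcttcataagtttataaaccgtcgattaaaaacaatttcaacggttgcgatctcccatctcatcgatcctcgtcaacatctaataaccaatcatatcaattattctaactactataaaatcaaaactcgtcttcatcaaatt
HTB11 (chr3:16914132-16914331, minus strand): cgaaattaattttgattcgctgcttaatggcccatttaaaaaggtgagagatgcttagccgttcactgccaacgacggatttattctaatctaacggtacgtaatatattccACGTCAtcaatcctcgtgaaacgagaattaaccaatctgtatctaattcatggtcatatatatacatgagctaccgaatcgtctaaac
HTR5 (chr4:18558946-18559145, minus strand): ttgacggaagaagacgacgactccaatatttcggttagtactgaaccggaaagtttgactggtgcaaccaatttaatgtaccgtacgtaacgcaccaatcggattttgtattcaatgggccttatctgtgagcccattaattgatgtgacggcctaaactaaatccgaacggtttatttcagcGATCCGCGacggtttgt
HTR8 (chr5:3473571-3473770, minus strand): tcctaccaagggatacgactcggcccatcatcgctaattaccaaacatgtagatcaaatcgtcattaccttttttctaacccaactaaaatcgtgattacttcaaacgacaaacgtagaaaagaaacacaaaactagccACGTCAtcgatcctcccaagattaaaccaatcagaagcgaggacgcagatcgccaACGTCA
HTA6 (chr5:24116221-24116420, minus strand): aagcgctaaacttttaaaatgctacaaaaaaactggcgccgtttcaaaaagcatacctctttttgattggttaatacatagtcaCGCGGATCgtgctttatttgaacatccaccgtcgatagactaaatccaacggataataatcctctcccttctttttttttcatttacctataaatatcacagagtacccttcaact

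HTR2 and HTA10 carry 2 octamers each, HTR5, an H3.3 gene, carries 1 close to its start, and HTR8, also H3.3, carries 2 hexamers. The octamer was otherwise found in HTR9, HTA13 and H4 AT1G07660. A match describes these letters only, and binding was not measured.

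The H3.1, H2B and H4 genes are built as single exons, apart from H4 AT1G07660, which has 2, and the H2A genes have 2 exons. The variant genes have 2 to 9. HTR4 (chr4:18555532-18557106) and HTR5 (chr4:18557149-18558945) lie side by side on the minus strand, so the window before HTR4 runs into HTR5, and the H3.1 genes HTR13 (chr5:3268847-3269594) and HTR9 (chr5:3270172-3270957) are likewise neighbours. HTB3 (chr2:12326808-12327808) lies beside H4 AT2G28740 (chr2:12329345-12330059).

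The coding sequences of this family are alike, which bears on the counts. Between H3.1 genes 80.3 to 89.5% of the bases were identical, between H4 genes 78.9 to 98.1%, and between H3.1 genes and the H3.3 genes of equal length 74.0 to 80.3%. Bases 79 to 138 of the coding sequences of HTR9, an H3.1 gene, and HTR5, an H3.3 gene, differ at 14 of 60 bases, which are in capitals.
HTR9: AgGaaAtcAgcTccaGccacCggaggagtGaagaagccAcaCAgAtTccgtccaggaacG
HTR5: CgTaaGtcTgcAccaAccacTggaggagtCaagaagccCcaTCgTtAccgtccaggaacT

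The share of 31-base words that a member shares with any other gene was 59.3% for HTA3, 39.3% for HTB9, 38.7% for H4 AT1G07660, 38.1% for HTR3, 35.3% for H4 AT3G46320, 35.04% for HTA12, 32.7% for H4 AT3G45930 and 25.3% for H4 AT1G07820. Reads from these genes could have been split with the genes that share their words, so their levels are less certain than those of the other members. The sharing genes were not all members. HTA12 shared words with 2 other genes, 0 of them members. H4 AT1G07660 shared with 3, of which 1 was a member, and HTB9 with 5, of which 2 were members. What the sharing genes outside the list are was not examined. HTR12, HTR8, HTA8, HTA9, HTA11, HTA6 and HTA7 shared none.

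The libraries held 13726579 to 15399327 counts in h1/H1 endosperm, 18340997 to 20939575 in H1/H1 endosperm and 19809010 in F. H1.1 was at 41.4, 91.9 and 72.6 CPM in C, D and E, against 183 and 106 in A and B, and H1.2 was at 21.9, 26.3 and 20.0 CPM, against 78.1 and 51.5. H1.3 had 0 counts in C, D and E. B stood apart: 9 heat stress genes summed to 447, 129 and 276 CPM in C, D and E, against 337 in A and 2801 in B. The 9 endosperm markers summed to 255 to 342 CPM in h1/H1 endosperm, 220 to 230 CPM in H1/H1 endosperm and 212 CPM in F, most of it ALE1 and ZOU, and IKU2 was at or near 0. F was the highest of the 6 libraries for 3 of them, with PHE1 at 33.9 CPM, against 0 to 0.42 CPM in h1/H1 and 0.05 to 0.68 CPM in H1/H1 endosperm, FWA at 13.5 CPM, against 0.93 to 5.03 and 0.67 to 4.11 CPM, and FIS2 at 8.20 CPM, against 1.39 to 7.55 and 1.45 to 6.58 CPM. For other endosperm markers F was the lowest of the 6 libraries. MEA was at 4.81 CPM in F, against 6.64 to 10.7 CPM in A to E, and ZOU at 47.8, against 52.2 to 81.2 CPM. EDE1 was at 5.62 CPM in F, against 9.25 to 13.6 CPM in A to E, and ALE1 at 97.0, against 108 to 231 CPM. Of 8 embryo markers, DRN was at 0 and STM, WOX2, CUC2 and PLT2 were under 1 CPM in all 6 libraries, F included. The embryo list summed to 84.9 CPM in F, below the 111 to 142 CPM of h1/H1 and the 105 to 165 CPM of H1/H1 endosperm, most of it WOX9. The endosperm markers were thus split and the embryo list was low in F, so the markers do not settle its tissue. Of the reads in F assigned to a parent, 82.1% were maternal, above the share the paper expected of embryo or endosperm DNA. Seed coat reads are maternal too, and no such share was taken for A to E, so this does not name the tissue either. Only 2 of the 3 listed H1/H1 endosperm samples are among the named libraries. F may be embryo or a further endosperm library and is called by its letter. The 8 seed coat markers, none of them at 0, summed to 3895 to 5517 CPM in h1/H1 endosperm, 3151 to 4382 CPM in H1/H1 endosperm and 4123 CPM in F, most of it TT10.

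All 35 members passed the minimum mean of 10 counts. Levels of different genes were compared as CPM per kb of transcript. The 3 H3.3 genes were the most abundant members, HTR4 with a mean over the 5 endosperm libraries of 263, HTR5 of 258 and HTR8 of 237 CPM per kb. HTB9 followed with 186, HTA9, the main H2A.Z gene, with 180 and HTB4 with 105 CPM per kb. The first 5 overlapped with their neighbours in this order: HTR4 ranged from 213 to 356, HTR5 from 206 to 309, HTR8 from 150 to 308, HTB9 from 121 to 235 and HTA9 from 131 to 214 CPM per kb. HTB4, at 91.9 to 115 CPM per kb, lay below all 5. The lowest were HTB3 with 3.98 and HTR12, the CENH3 gene, with 3.17 CPM per kb. Within one class the spread was wide, and the 6 H2B genes ran from HTB3 to HTB9, while 2 of the 3 H2A.Z genes, HTA11 and HTA8, had means of 33.2 and 24.7 CPM per kb beside the 180 of HTA9.

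**Figure D1:**
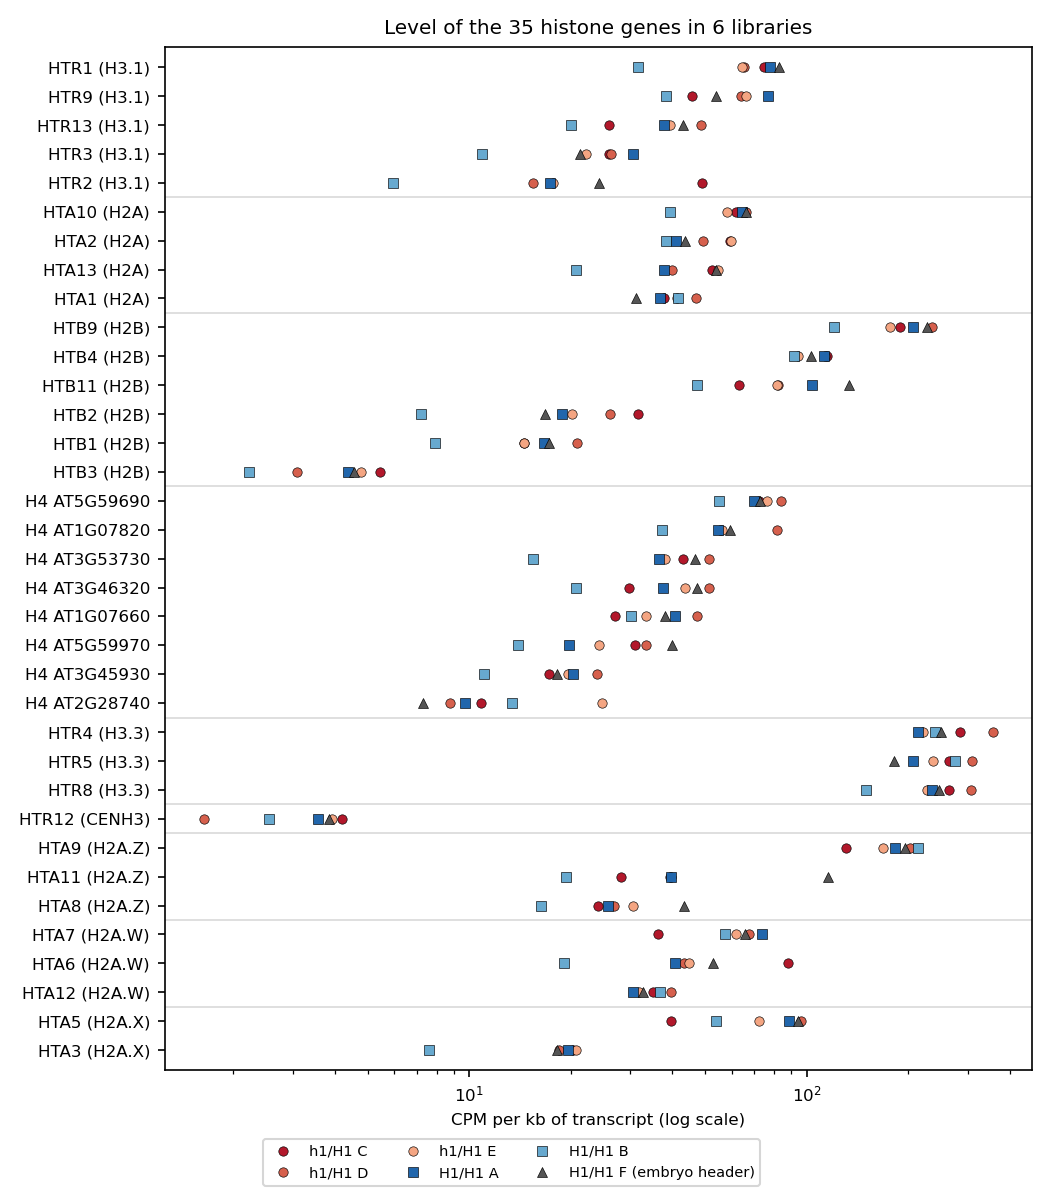
Level of each of the 35 genes as CPM per kb of transcript (log axis), by class, in h1/H1 endosperm (circles), H1/H1 endosperm (squares) and library F (triangles). H3.3 genes lie highest and HTR12 lowest, B is the leftmost endosperm library in 25 of the 35 rows, and F lies far to the right for HTA11.

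H3.3 transcripts outnumbered H3.1 transcripts in every library. Summed per kb, H3.3 was 3.67, 4.44 and 3.27 times H3.1 in C, D and E, against 2.73 times in A and 6.22 times in B. The ratio was 3.01 in F. As a share of the counts of both classes, H3.1 took 16.4% (95% Wilson interval 15.8 to 17.0%), 13.95% (13.4 to 14.5%) and 18.0% (17.397 to 18.6%) in C, D and E, against 21.1% (20.5 to 21.8%) in A and 10.01% (9.55 to 10.5%) in B. These intervals cover counting error only, and the 2 H1/H1 libraries lay on either side of all 3 h1/H1 libraries.

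The first comparison asked whether loss of maternal H1 altered the level of these genes in endosperm. No member was called by edgeR's quasi-likelihood test with limits of 0.05 on the adjusted p and 2-fold on the change. Over all genes tested, 0 of 18951 (0%) were called, and the adjusted p was 1 for each of the 35 members. An unadjusted p under 0.05 was seen for 1 member, H4 AT5G59970, and for 706 genes (3.73%), and the member's p was 0.0296 in that edgeR fit across all genes. DESeq2 called 50 genes, 29 higher and 21 lower in h1/H1, and 0 members, with 3 members at an unadjusted p under 0.05 and a smallest adjusted p among members of 0.77. Most members were nevertheless somewhat higher in h1/H1 than in H1/H1 endosperm. The median log2 fold change, h1/H1 over H1/H1, was 0.37 over the 23 replication-linked genes and 0.22 over the 12 variant genes, against -0.018 over all genes tested, and it was above 0 in 23 of the 23 and in 9 of the 12, against 48.1% of all genes. In bulk tissue, fewer cells of a type and less RNA per cell cannot be told apart.

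These fold changes turned on the H1/H1 library B. Without B, the median log2 fold change was 0.02 for the replication-linked and 0.05 for the variant genes, with 14 of 23 and 7 of 12 above 0, against 52.2% of all genes. Without A it was 0.88 and 0.36. With all libraries, 8 of the 35 members (22.9%) had every h1/H1 library above both H1/H1 libraries, against 7.84% of all genes tested. For 0 members was every h1/H1 library below both, against 8.18% of all genes tested. Without B, 12 of the 35 were higher and 6 lower, against 21.3% and 24.9% of all genes. Without A, 25 of the 35 were higher and 1 lower, against 26.0% and 26.3% of all genes.

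B was low for most of these genes. It was the lowest of the 5 endosperm libraries for 20 of the 23 replication-linked and 5 of the 12 variant genes, against 22.7% of all genes. The median ratio of B to A was 0.55 for the replication-linked genes, 0.68 for the variant genes and 0.98 over all genes. A separate list of 10 DNA replication genes (PCNA, MCM and ribonucleotide reductase subunits) was below A in B for 10 of 10, with a median ratio of 0.49. Their summed level was 390, 313 and 399 CPM in C, D and E, against 421 in A and 199 in B. Of the tissue markers, 5 of 8 for the seed coat were lower in B than in A, with a median ratio of 0.59. For the endosperm 6 of 8 were lower, with a median ratio of 0.56, against 51.5% of all genes. The marker sums went the other way, at 4382 CPM in B and 3151 CPM in A for the seed coat. For the endosperm they were 230 and 220 CPM. BAN was at 151 CPM in B and 605 CPM in A, whereas TT10 was at 4101 and 2370 CPM. In B the replication genes were thus low along with the histone genes, the heat stress genes were high and the tissue markers were split. The part of these genes in the difference was not tested.

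The replication-linked genes summed to 952, 1068 and 931 CPM in C, D and E, against 970 and 609 CPM in A and B, and 1029 CPM in F. The variant genes summed to 1226, 1525 and 1165 CPM, against 1156 and 1129 CPM, and 1276 CPM in F. A lay within the h1/H1 range for the first sum, whereas B lay below every other library, and for the second sum A and B lay just below the 3 h1/H1 libraries. The log2 ratio of the first sum to the second was -0.36, -0.51 and -0.32 in h1/H1 endosperm, with a mean of -0.40 ± 0.10 (SD, n = 3), against -0.25 and -0.89 in H1/H1 endosperm, with a mean of -0.57 ± 0.45 (SD, n = 2). The difference of 0.17 was smaller than the spread between A and B. It was 0.49 without A and -0.15 without B.

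**Figure D2:**
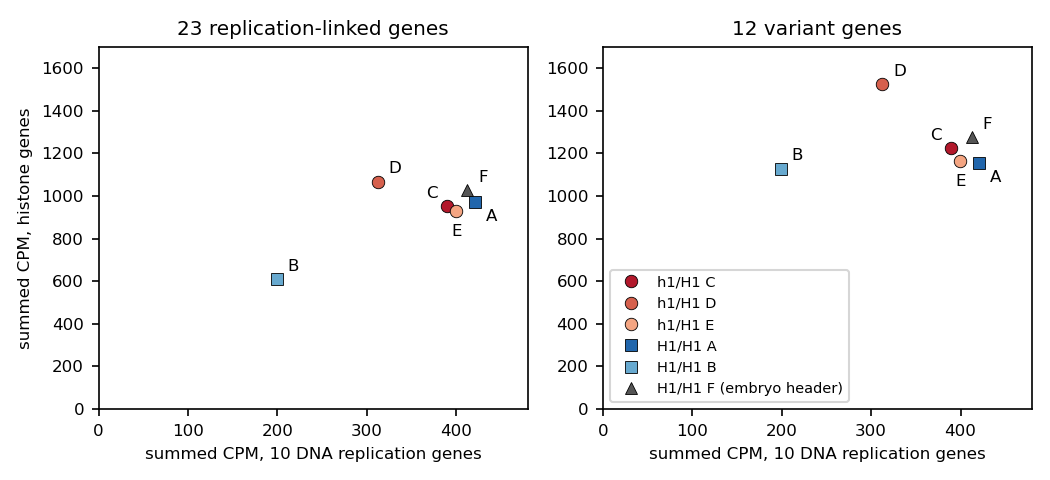
Summed CPM of the 23 replication-linked (left) and 12 variant genes (right) against the summed CPM of 10 DNA replication genes, 1 point for each of the 6 libraries. B, at 199 CPM on the horizontal axis, is at 609 CPM for the replication-linked genes, below the other 5 libraries at 931 to 1068 CPM, and at 1129 CPM for the variant genes, next to A at 1156 CPM.

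By class, H3.1 summed to 167, 165 and 158 CPM in C, D and E, against 182 in A and 80.8 in B. H2B summed to 377, 421 and 346 CPM, against 407 and 256 CPM, and H4 to 243, 321 and 260 CPM, against 239 and 160 CPM. In these 3 classes A was within or next to the h1/H1 range and B below it. H2A, at 165, 161 and 167 CPM in h1/H1 against 143 and 112 CPM in H1/H1 endosperm, was the replication-linked class in which both H1/H1 libraries were clearly below. Its h1/H1 mean of 164 ± 3.21 CPM (SD, n = 3) was 1.29 times the H1/H1 mean of 128 ± 21.5 CPM (SD, n = 2). Of the variants, the H2A.Z sum did not share the low level in B, with 156, 230 and 204 CPM against 212 and 211 CPM. Nor did the H3.3 sum, with 850, 1018 and 720 CPM against 679 and 727 CPM. Single genes of these classes differed. The ratio of B to A was 0.63 for HTA8, 0.49 for HTA11 and 0.64 for HTR8. It was 1.17 for HTA9, 1.13 for HTR4 and 1.34 for HTR5.

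**Figure D3:**
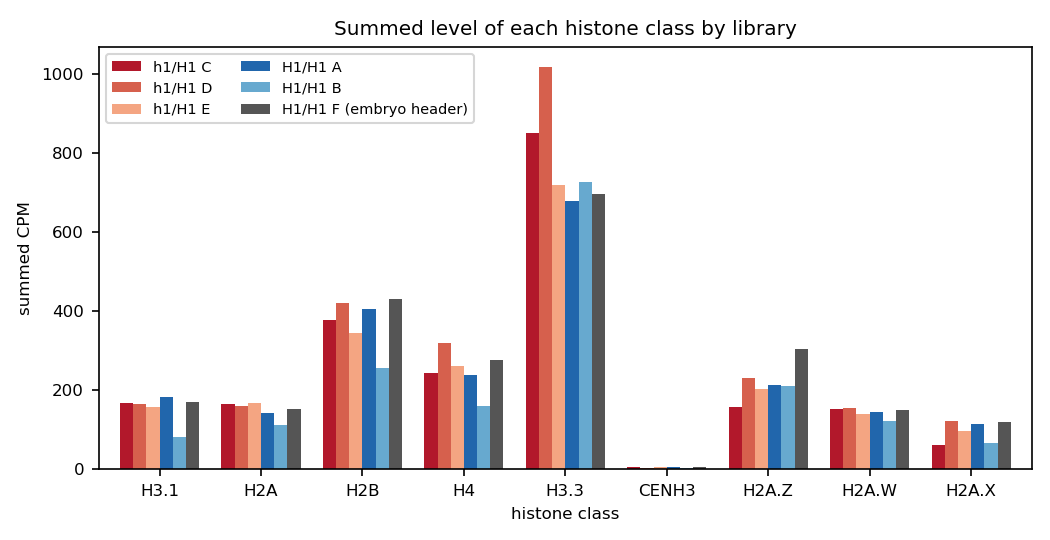
Summed CPM of each class in h1/H1 endosperm (red), H1/H1 endosperm (blue) and library F (grey). The bar of B is the lowest of 6 for H3.1, H2A, H2B and H4, level with A for H2A.Z and above A for H3.3.

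HTR9 had the highest mean CPM among the H3.1 genes over the 5 endosperm libraries, with HTR1 next to it, which was higher in C and per kb. HTR9 was at 36.0, 50.1 and 52.1 CPM in C, D and E, against 60.3 and 30.2 CPM in A and B, so the groups overlapped, with a log2 fold change of 0.02 ± 0.34 (SE). HTR2 had the largest fold change of all members, 1.24 ± 0.64 (SE), from 37.5, 11.8 and 13.6 CPM against 13.3 and 4.55 CPM. That value rested on C, the one library of these 5 above 14 CPM, and on B, the lowest of them. Without C the log2 fold change was 0.51, without B 0.66 and without A 2.20. HTR9 turned in direction without B, at -0.39, and was near 0 without D or E, at -0.04 and -0.07. Both genes encode the H3 form that CAF-1 deposits at replication.

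C stood out in how its transcripts were divided between copies of a class. HTR2 made up 22.4% of the H3.1 CPM in C, but 7.16% and 8.58% in D and E, against 7.29% and 5.63% in A and B, while the H3.1 sum of C was close to those of D and E. HTA6 made up 44.9% of the H2A.W CPM in C, against 21.9% and 25.2% in D and E. In A and B it made up 21.9% and 12.3%. HTA7 made up 22.4% in C, against 41.3% and 42.0% in D and E and 48.0% and 44.5% in A and B. HTA3 made up 27.2% of the H2A.X CPM in C, against 12.2% and 17.3% in D and E. In A and B it made up 13.8% and 9.28%, and 59.3% of its words are shared with other genes. These shares were picked out after their values were seen, and with 1 such library they describe C alone.

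Of the H2A genes, HTA10 was at 51.8, 55.3 and 48.6 CPM in h1/H1 endosperm, against 53.9 and 32.9 CPM in H1/H1 endosperm, giving a log2 fold change of 0.26 ± 0.28 (SE), which was -0.05 without B. HTA2 was at 46.5, 38.7 and 46.9 CPM, against 32.2 and 30.1 CPM, with a log2 fold change of 0.50 ± 0.25 (SE). HTA13 was at 34.7, 26.5 and 36.2 CPM, against 25.2 and 13.8 CPM, with a log2 fold change of 0.74 ± 0.34 (SE), which was 0.37 without B and 1.24 without A. HTA10 overlapped between the groups, whereas HTA2 and HTA13, which also encode canonical H2A, did not. HTA2 is the case in which A and B were close to each other, and its fold change was 0.45 to 0.58 with any 1 library left out.

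Among the H2B genes, HTB4 was at 148, 146 and 121 CPM, against 145 and 118 CPM, with a log2 fold change of 0.08 ± 0.25 (SE) and of -0.06 without B. HTB2 was at 26.8, 22.1 and 17.1 CPM, against 15.9 and 6.10 CPM, with a log2 fold change of 1.00 ± 0.45 (SE), which was 0.46 without B and 1.85 without A. The abundant HTB4 was thus at like levels in both groups, and HTB2, a minor copy whose groups did not overlap, was lowest in B. HTB9, which has the largest transcript level per kb of this class, was at 137, 171 and 129 CPM, against 150 and 87.7 CPM.

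H4 AT1G07820 was at 54.0, 79.9 and 55.0 CPM, against 53.4 and 36.5 CPM, with a log2 fold change of 0.49 ± 0.30 (SE). H4 AT5G59690 was at 53.9, 62.6 and 56.7 CPM, against 52.1 and 40.8 CPM, with a log2 fold change of 0.31 ± 0.25 (SE). H4 AT3G53730 was at 48.5, 58.2 and 43.0 CPM, against 41.3 and 17.42 CPM, with a log2 fold change of 0.77 ± 0.38 (SE). In these 3 genes C, D and E lay above both A and B, but A came within 2 CPM of the lowest h1/H1 library. Without B their log2 fold changes were 0.24, 0.15 and 0.27, and without A 0.79, 0.50 and 1.52. Without D that of AT1G07820 was 0.28. H4 AT5G59970, at 27.9, 30.0 and 21.8 CPM against 17.7 and 12.6 CPM, had a log2 fold change of 0.81 ± 0.31 (SE), which was 0.58 without B and 1.08 without A. All 4 encode the histone that pairs with H3, and the remaining 4 H4 genes overlapped between the groups.

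Of the H3.3 genes, HTR5 was at 340, 398 and 305 CPM, against 266 and 355 CPM, with a log2 fold change of 0.16 ± 0.27 (SE) and of -0.03 without A. HTR8 was at 215, 252 and 186 CPM, against 193 and 122.9 CPM, with a log2 fold change of 0.47 ± 0.30 (SE), which was 0.18 without B and 0.83 without A. The 2 genes differed in B, which held more HTR5 and less HTR8 than A, although both encode H3.3. HTR12, which encodes CENH3, rests on 31 to 99 counts per endosperm library and was at 6.15, 2.39 and 5.73 CPM, against 5.21 and 3.72 CPM. Its log2 fold change was 0.09 ± 0.55 (SE), and -0.13, -0.13 and -0.06 without B, C or E.

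HTA9, the most abundant H2A.Z gene, was at 110, 171 and 142 CPM, against 154 and 180 CPM, with a log2 fold change of -0.25 ± 0.27 (SE), which was -0.10 without C and -0.13 without B. HTA8, a minor H2A.Z gene, was at 21.1, 23.6 and 26.9 CPM, against 22.7 and 14.4 CPM, with a log2 fold change of 0.36 ± 0.31 (SE), which was 0.07 without B and 0.73 without A. The H2A.Z genes thus split in direction, with overlapping groups. For H2A.W, HTA7 was at 34.3, 63.9 and 58.4 CPM, against 69.8 and 54.3 CPM, with a log2 fold change of -0.25 ± 0.32 (SE), which was -0.02 without C and -0.06 without A. HTA6 was at 68.7, 33.8 and 35.1 CPM, against 31.8 and 14.9 CPM, with a log2 fold change of 0.97 ± 0.44 (SE), which was 0.53 without B, 0.56 without C and 1.62 without A. HTA6 was the one variant gene whose groups did not overlap, and D and E exceeded A by under 4 CPM. HTA5, the main H2A.X gene, was at 43.7, 106 and 79.7 CPM, against 97.7 and 59.6 CPM, with a log2 fold change of -0.04 ± 0.40 (SE), which was 0.36 without A and 0.24 without C. HTA3, a minor copy, was at 16.3, 14.8 and 16.7 CPM, against 15.68 and 6.10 CPM, with a log2 fold change of 0.55 ± 0.43 (SE) that was 0.02 without B and 1.38 without A.

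**Figure D4:**
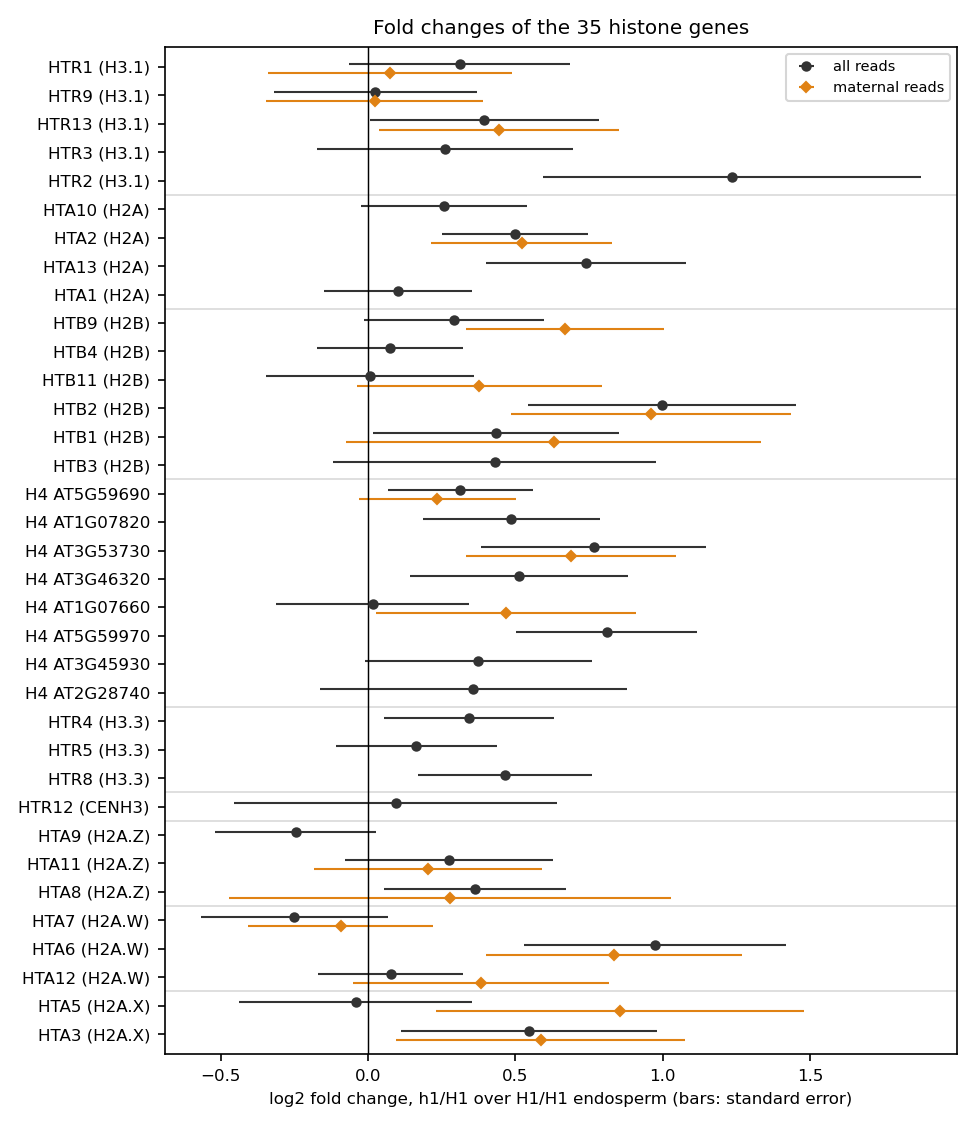
Log2 fold change, h1/H1 over H1/H1 endosperm, with its standard error for the 35 genes from all reads (black circles) and for 18 genes from maternal reads (orange diamonds). Most points lie right of 0, and no gene was called in either fit.

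The octamer and hexamer genes did not stand apart in these fold changes. The median was 0.31 for the 7 replication-linked genes with an octamer, 0.36 for the 6 with a hexamer alone and 0.44 for the 10 with neither, with ranges that overlapped. The ratio of B to A had medians of 0.55, 0.47 and 0.70 in the same 3 groups. Ranges overlapped here too, at 0.34 to 0.78, 0.36 to 0.58 and 0.42 to 1.38.

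Reads with Col-0 bases come from the mother, which carried the h1 alleles, and were compared on their own. A read can be assigned only where it covers a base that differs between Col-0 and Ler, and 9 members had 0 maternal reads in all 6 libraries. Of the 35 members, 18 passed the filter, and 0 were called by edgeR's quasi-likelihood test, against 1 of 9779 loci (0.0102%), with 0 members and 385 loci at an unadjusted p under 0.05. The median log2 fold change of the 18 was 0.46, against -0.005 over all loci, and it was above 0 in 17. The share of all loci above 0, and the median without B, were not taken for maternal reads. Maternal reads also include those of any seed coat, so they do not stand for the maternal endosperm alleles alone. HTB2 had 150, 111 and 98 maternal reads in C, D and E, against 114 and 41 in A and B, from totals of 705347 to 842847 and 924897 to 1013458 maternal reads, with a log2 fold change of 0.96 ± 0.47 (SE). HTA6 had 196, 107 and 135, against 143 and 62, with one of 0.83 ± 0.43 (SE). H4 AT3G53730 had 224, 288 and 235, against 257 and 137, with one of 0.69 ± 0.36 (SE). In each of them B was again the low library, and the maternal values share their libraries with the comparison of all reads.

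Library F was set beside the 5 libraries named endosperm without a test, since it is 1 library and its tissue is in doubt, so its values are no comparison of tissues. It was above all 5 for 6 of the 35 members (17.1%), against 17.7% of all genes. HTA11, an H2A.Z gene, was at 103 CPM in F, against 25.1, 35.1 and 35.2 CPM in C, D and E and 35.3 and 17.3 CPM in A and B. HTA8, of the same class, was at 38.0 CPM in F, above the 14.4 to 26.9 CPM of the 5 endosperm libraries, whereas HTA9 was at 164 CPM, within their range. The H2A.Z sum was therefore 305 CPM in F, against 156 to 230 CPM in A to E, and HTA11 made up 33.8% of it, against 8.17 to 17.3% in A to E. H2B, at 431 CPM in F, was just above the range of A to E, and each of the other classes lay within it.

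F is the one library in which reads of both parents were used. Over all loci 82.1% of its assigned reads were maternal (95% Wilson interval 82.0 to 82.2%). Of the 20 members with at least 10 assigned reads, 18 were below that share (90.0%), against 41.2% of the 11250 loci with as many reads, and the median was 67.9% for the members and 85.1% for the loci. HTA11 had 162 maternal and 188 paternal reads, a maternal share of 46.3% (41.1 to 51.5%), and HTA6 had 147 and 149, a share of 49.7% (44.0 to 55.3%). HTR9, with 149 and 127 reads, was at 54.0% (48.1 to 59.8%). Among members with over 100 assigned reads, HTA7 was highest at 81.9% (77.9 to 85.4%) and H4 AT5G59690 next at 78.6% (75.0 to 81.8%). The members therefore differed among themselves beyond counting error, with HTA6 and HTA7, both H2A.W, far apart. The seed coat, a maternal tissue, was represented in F by markers that summed to 4123 CPM, and its part in these shares was not tested.

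**Figure D5:**
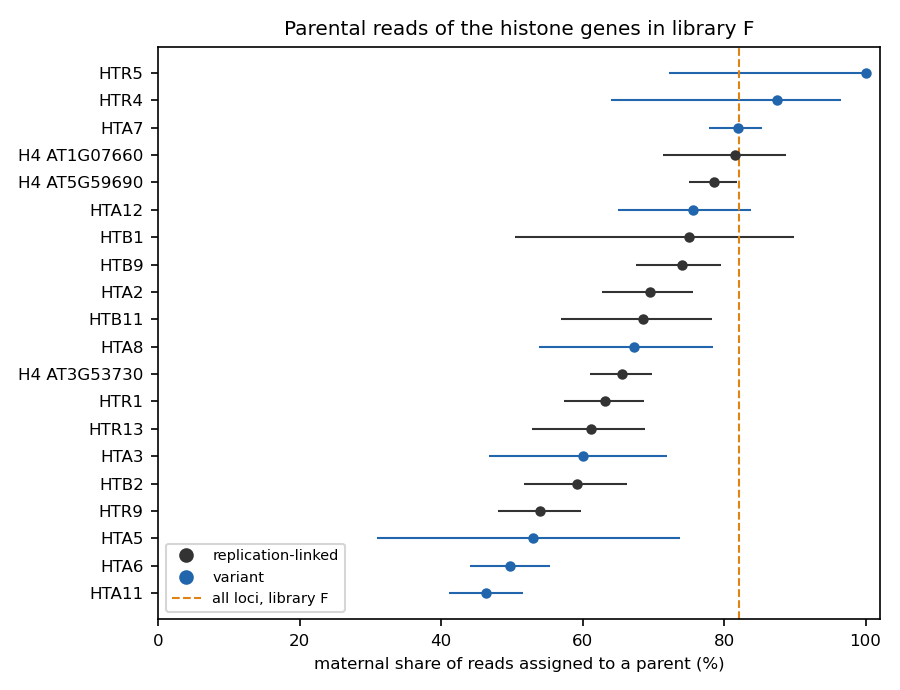
Maternal share of the reads assigned to a parent in library F, with its 95% Wilson interval, for the 20 members with at least 10 such reads. The dashed line is the share over all loci, 82.1%, and HTA11, at 46.3%, lies lowest.

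Genes that handle these histones were taken from 3 further lists. Of 21 histone chaperones and remodellers, 0 were called, with a median log2 fold change of 0.15. FAS1, a subunit of the H3.1 chaperone CAF-1, was at 21.4, 11.1 and 19.2 CPM, against 8.63 and 7.39 CPM, with a log2 fold change of 1.11 ± 0.39 (SE). ASF1B, a chaperone of H3 and H4, had one of 0.65 ± 0.47 (SE) from 7.27, 4.71 and 9.11 CPM against 5.16 and 3.83 CPM, and TSK, which binds H3.1, one of 0.44 ± 0.48 (SE) from 17.2, 6.10 and 14.5 CPM against 9.95 and 8.63 CPM. FAS1 was the one gene of the 21 whose groups did not overlap (4.76%), a share under the 7.84% of all genes.

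Of the 10 DNA replication genes 0 were called, with a median log2 fold change of 0.22. MCM7 had the largest, 0.51 ± 0.41 (SE), from 35.1, 20.5 and 36.6 CPM against 29.5 and 13.9 CPM. MCM4 had 0.50 ± 0.31 (SE), from 38.4, 38.1 and 41.9 CPM against 35.9 and 19.8 CPM, and MCM3 had 0.47 ± 0.36 (SE), from 63.8, 46.5 and 48.6 CPM against 52.1 and 24.5 CPM. Without B the 3 values were 0.06, 0.14 and 0.03, and without A 1.15, 1.00 and 1.11. All 3 encode subunits of the replicative helicase, and their level in B was about that of the histone genes relative to A. Of 11 other histone loci 5 passed the filter and 0 were called. HTR14 had a log2 fold change of -1.77 ± 1.19 (SE), from 2.10, 0.31 and 1.57 CPM against 9.05 and 0.10 CPM, and was at 89.2 CPM in F. Without A this fold change was 3.61, of the other sign. HTB6 had 0.97 ± 0.69 (SE), from 5.10, 2.94 and 2.29 CPM against 2.53 and 0.98 CPM, and HTR11 had -0.45 ± 0.73 (SE), from 1.12, 2.01 and 0.91 CPM against 2.32 and 1.34 CPM. These 3 genes were low in A to E. Without B and without A, HTB6 was at 0.44 and 1.80 and HTR11 at -0.79 and -0.01 in log2 fold change, and HTR14 was the one that F held at a level far above both groups.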

How the data were processed

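The authors trimmed reads with fastp, assigned them to TAIR10 transcripts with Salmon 1.9.0, according to the submitters' processing notes, and deposited a table of whole read counts per gene. Its name calls them normalized, but the totals differ between libraries and the values are whole. How transcripts were summed to genes, and whether strand was used, is not given in the sources used here. The deposited allele counts come from the authors' second mapping, to cDNA sequences of Ler and Col-0 (TAIR8).

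Some columns were not used, 5 of counts and 5 of allele counts, because their names give no group or because a group may take no more columns than samples. Libraries are lettered by group. The series lists 3 H1/H1 endosperm samples, of which 2 are used, and no column carries a replicate number. Whether replicates came from separate plants is stated only as independent RNA sets, so p-values measure the spread between these samples.

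Counts were tested with edgeR 4.0.16 (R 4.3.3), TMM and the quasi-likelihood test, on genes whose counts averaged 10 or more, F being its own group, with Benjamini-Hochberg adjustment over all genes and limits of 0.05 and 2-fold. DESeq2 1.42.0 was an alternative. Standard errors are the log2 fold change over the square root of F. The tests were checked on simulated counts, in which most changes of 2-fold were missed. A missing call is therefore not evidence of an unchanged level. Gene models and promoters are from RefSeq's TAIR10.1 annotation, which holds all 35 members. Sequences, levels per kb and figures were made in Python 3.11.15 with matplotlib 3.10.9.

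The members and lists were chosen with earlier results of these data known. Named members are, in each class, the highest by mean CPM and the largest fold change, any called and any whose groups do not overlap, and from each further list the called genes and the 3 largest fold changes. Other members were named after their values were seen.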

Additional observations from a re-analysis of the deposited data

Results flagged for a closer look

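HTA11, an H2A.Z gene, was at 103 CPM in library F, 2.92 times the highest of the 5 endosperm libraries, and was the one member of 35 above 2-fold (2.86%), against 3.23% of all genes tested. F is outside the comparison of endosperm, its tissue is in doubt and it is 1 library, so the value has no replicate check.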

How the results depend on the processing

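No paired analysis was possible because the columns carry no replicate numbers. No member was called from all reads or from maternal reads, and no gene of the 3 further lists from all reads, under any alternative run: DESeq2, upper quartile scaling, no filter on low counts, a mean of at least 50 counts, no limit on the fold change, the endosperm libraries alone (all reads) and each library left out. The counts over all genes did move. From all reads 0 genes were called, against 50 with DESeq2 and 0 to 109 with 1 library left out (109 without A, 9 without B). From maternal reads 1 locus was called, against 12 with DESeq2, 80 with no filter and 0 to 40 with 1 library left out. The log2 ratio of replication-linked to variant sums differed by 0.17 between the groups and by 0.64 when medians over genes replaced the sums.

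With 1 library left out, the members with every h1/H1 library above every H1/H1 library numbered 11 to 25 of the 35, against 11.9 to 26.0% of all genes. Members with a fold change above 0 numbered 21 to 32 of the 35, against 46.7 to 52.9% of all genes. These counts were added after the data were seen. The log2 fold change ran from -0.39 to 0.61 for HTR9, -0.053 to 0.66 for HTA10, -0.062 to 0.23 for HTB4, -0.13 to 0.41 for HTR12, -0.029 to 0.39 for HTR5, -0.35 to 0.36 for HTA5, -0.15 to 0.88 for HTA11 and -2.75 to 3.61 for HTR14, so their direction depends on single libraries. The cause was not tested. HTR12 and HTB3 rest on the fewest counts, and 17 members had too few maternal reads to test.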
